A study of Rattus norvegicus with 46 samples.

Results

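Macrophages and related cells take up particles, modified lipids and glycans through scavenger receptors, and 8 genes of such receptors were followed: Marco, Msr1, Mrc1, Cd163, Stab1, Clec7a, Olr1 and Scarb1. They were taken by gene symbol, and all 8 were found among the 30045 genes listed for each of the 46 samples. Aged male Fischer 344 rats, an inbred laboratory strain, breathed crystalline silica (Min-U-Sil 5, a fine quartz dust) or filtered air in whole-body chambers, and lung and whole blood were collected afterwards. The silica chambers held 15 mg/m3 of dust, and exposure to silica or air lasted 6 hours daily over 5 days. The groups are silica and air lungs 1 day after exposure (6 samples each), silica and air lungs at 6 months (6 and 4 samples), silica and air blood at 1 day (6 each) and silica and air blood at 6 months (6 each). The study's title calls all the rats aged, and no age in weeks or months was found in the labels. No sample came from sorted cells, so each value is the sum over every cell type in the lung piece or the blood.

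Scavenger receptors are a loose class of membrane proteins that share ligands rather than one ancestry. Marco and Msr1 are class A receptors with a collagen-like stalk, and both are known in rodents and humans to bind uncoated mineral particles, silica among them, on alveolar macrophages. Mrc1 (the mannose receptor) and Clec7a (dectin-1, the receptor for fungal beta-glucan) are C-type lectins, and Olr1 (LOX-1) is a lectin-like receptor for oxidized low-density lipoprotein. Cd163 takes up haemoglobin bound to haptoglobin, Stab1 (stabilin-1) clears modified proteins in macrophages and endothelium, and Scarb1 is the receptor for high-density lipoprotein.

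Libraries held between 13.4 M and 24.4 M estimated counts in lung and between 10.6 M and 17.5 M in blood. In lung, 5 pairs of samples within a group differed by little more than sampling noise: air replicates 02 and 07 and air replicates 04 and 08 at 1 day, and silica replicates 30 and 31, air replicates 19 and 24 and air replicates 20 and 25 at 6 months. Each pair was counted as 1 library, which leaves 6 silica and 4 air lungs at 1 day, 5 silica and 2 air lungs at 6 months, and 41 libraries in all. Both air lungs of 6 months also stood apart in cell markers. The summed level of 15 lymphocyte markers was 393 to 959 CPM (counts scaled to the size of the library) in silica lungs of that time, against 2400 and 3160 CPM in the air lungs. The list did not move as one. Of 14 tested, 7 were called higher in silica lungs by the test described below, against 9.52% of all genes. Another 5 were called lower, against 10.1% of all genes, and the median change was 0.17. The B-cell genes Cd79b and Ms4a1 were higher in silica lungs, by 2.88 ± 0.45 and 2.37 ± 0.36 on the log2 scale, and so were the T-cell genes Cd3d, Cd3e, Cd3g and Cd4. Eomes and Nkg7, both natural killer cell genes, averaged 22.6 and 59.2 CPM in silica lungs, against 293 and 463 CPM in air lungs, and Cd8a, Gzmb and Prf1 were lower in silica lungs as well. Levels below are CPM scaled by TMM factors within each tissue and time, and changes are log2 ratios of silica over air with their standard error (SE). A gene was called at an adjusted p under 0.05, by edgeR's quasi-likelihood test with Benjamini-Hochberg adjustment over all genes tested.

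Msr1 rose in silica lungs at both times. At 1 day it was at 132, 121, 117, 129, 116 and 120.3 CPM in the 6 silica lungs, against 68.2, 75.1, 68.0 and 62.9 CPM in the 4 air lungs. Every silica lung lay above every air lung, by a wide margin. The mean was 122 ± 6.62 CPM in silica lungs and 68.5 ± 4.99 CPM in air lungs (SD, n = 6 and 4), a rise of 0.84 ± 0.06 on the log2 scale or 1.79-fold (adjusted p = 6.78e-07), and it was the 28th smallest p among 15724 genes. In all 10 fits that left out 1 library it rose by 0.80 to 0.88. In bulk tissue, more cells of a type and more RNA per cell cannot be told apart.

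At 6 months Msr1 was at 86.3, 208, 147, 201 and 126 CPM in the silica lungs, the first being the merged replicates 30 and 31, against 48.5 and 74.8 CPM in the air lungs. The groups again did not overlap, and the silica lungs ranged more widely than the air lungs. The mean was 154 ± 51.3 CPM in silica lungs and 61.6 ± 18.6 CPM in air lungs (SD, n = 5 and 2), a rise of 1.32 ± 0.37 (adjusted p = 0.0440). The difference between the silica effects of the 2 times was 0.45 ± 0.31 (6 months minus 1 day, adjusted p = 0.297), so a change of the effect with time was not shown. The call at 6 months was lost in 6 of 7 fits that left out 1 library, with an adjusted p of 0.324 without the merged air replicates 19 and 24, which leaves 1 air library that is assumed to vary like the rest.

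Marco, the other class A receptor, had few counts in these lungs and was near the detection floor at 1 day. At 1 day it had 1, 10, 8, 3, 12 and 3 counts in the silica lungs, 37 in all, against 2, 4, 0 and 0 counts in the air lungs, 6 in all. The highest counts were in silica lungs and the ranges overlapped. It did not pass the filter on low counts there, and without a filter its log2 change was 1.92 ± 0.83 (adjusted p = 0.220). At 6 months it was at 0.841, 0.614, 3.06, 3.16 and 0.314 CPM in silica lungs, against 0.115 and 0.911 CPM in air lungs. Silica replicates 33 and 34 stood above the rest, the groups overlapped, and the change of 1.58 ± 1.08 was not called (adjusted p = 0.345).

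The silica effect on Clec7a had opposite signs at the 2 times. At 1 day it was at 119, 135, 121, 150.0, 159.7 and 129 CPM in silica lungs, against 154, 184, 176 and 160.4 CPM in air lungs. Silica replicate 14 lay among the air lungs and the other 5 below them. The mean was 136 ± 16.1 CPM in silica lungs and 169 ± 13.8 CPM in air lungs, a change of -0.31 ± 0.09 on the log2 scale (adjusted p = 0.0354). This call is close to the threshold: it was lost in 7 of 10 fits that left out 1 library (highest adjusted p 0.103, without air replicate 05) and when all 4 lung groups shared 1 fit (adjusted p = 0.276).

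At 6 months Clec7a was at 127, 209, 220.2, 207 and 242 CPM in silica lungs, against 106 and 101 CPM in air lungs. Every silica lung lay above both air lungs, and the merged replicates 30 and 31 lay closest to them. The mean was 201 ± 43.8 CPM in silica lungs and 103 ± 3.53 CPM in air lungs (SD, n = 5 and 2), a rise of 0.96 ± 0.24 (adjusted p = 0.0304). The silica effect at 6 months minus that at 1 day was 1.24 ± 0.23 (adjusted p = 0.00130), and its adjusted p was at most 0.0160 in the 17 fits that left out 1 library. The order of group means, with each time scaled on its own, was silica at 6 months, air at 1 day, silica at 1 day and air at 6 months.

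Olr1 lies beside Clec7a in the genome and went with it at 6 months. At 1 day it was at 24.9, 22.1, 24.6, 31.5, 29.2 and 25.9 CPM in silica lungs, against 31.3, 36.6, 29.5 and 28.7 CPM in air lungs. The ranges overlapped, and the change of -0.26 ± 0.10 was not called (adjusted p = 0.119). At 6 months it was at 35.3, 48.8, 34.8, 47.9 and 45.8 CPM in silica lungs, against 26.8 and 26.1 CPM in air lungs. The groups did not overlap, and it rose by 0.69 ± 0.18 (adjusted p = 0.0335). The difference between times was 0.92 ± 0.19 (adjusted p = 0.00331), with an adjusted p of at most 0.0276 in the fits that left out 1 library. Across the 17 lung libraries Olr1 and Clec7a had a Pearson r of 0.80, which made Clec7a the 13th most alike of 12333 genes for Olr1 and Olr1 the 78th most alike for Clec7a.

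**Figure D1:**
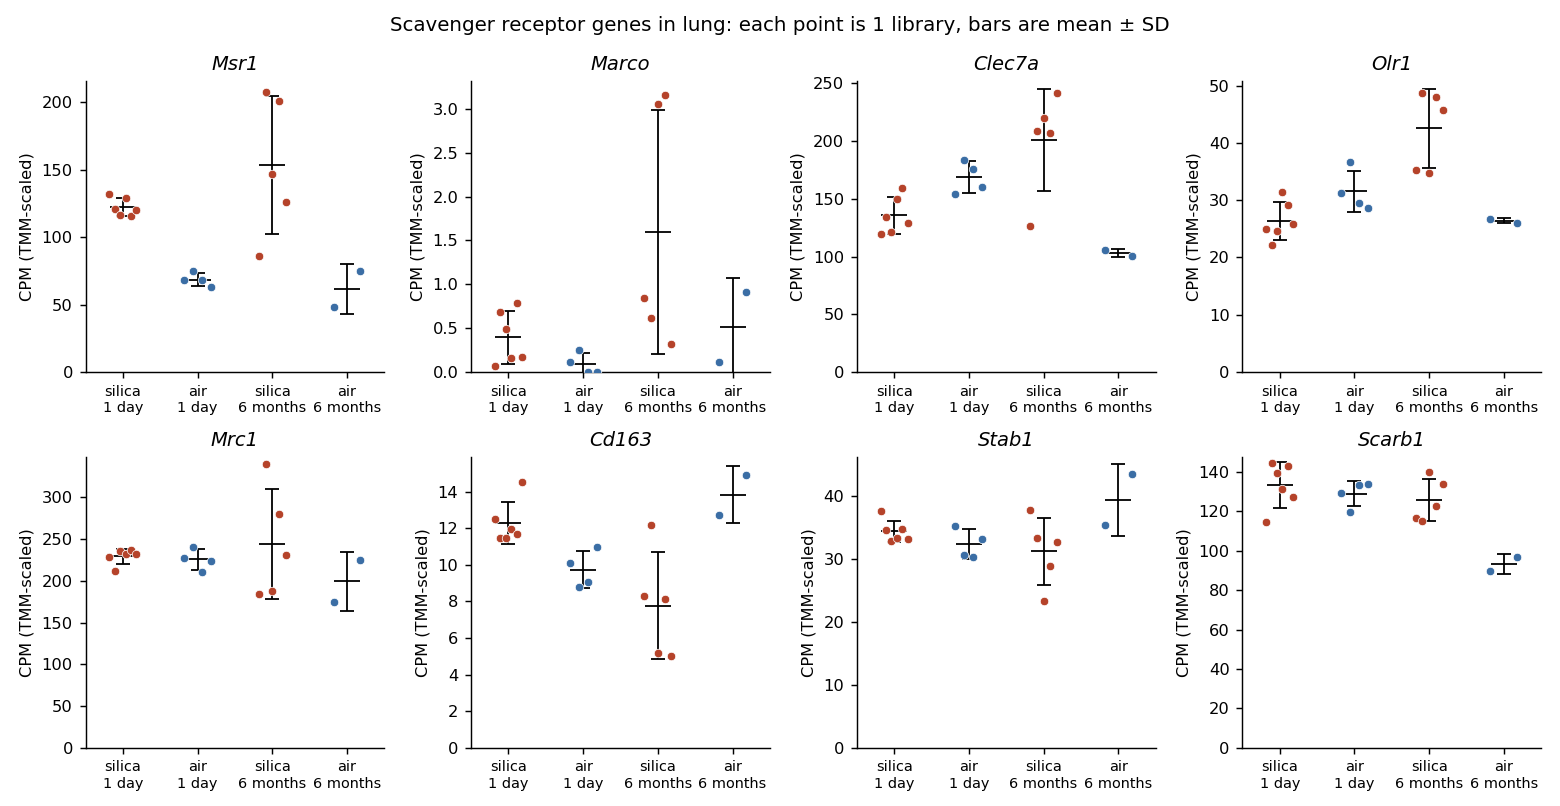
CPM of the 8 receptor genes in each lung library (vertical axis, linear), with silica left of air at 1 day and at 6 months; bars are mean ± SD. Msr1 separates the exposures at both times, Clec7a lies lower in silica at 1 day and higher at 6 months, and Mrc1 lies at about the same level in both exposures at 1 day.

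Both genes lie in the lectin-like gene cluster of rat chromosome 4, next to each other in RefSeq's gene order (assembly GRCr8). The order there is Clec12b, Clec1b, Clec9a, Clec1a, Clec7a, Olr1, Tmem52b, Gabarapl1, Klre1, Klrd1 and Klrk1. Of these neighbours, Clec9a (a receptor for dead cells on dendritic cells) rose at 6 months by 1.72 ± 0.26 (adjusted p = 0.00778). Klre1, Klrd1 and Klrk1, natural killer cell lectins, changed by -2.93, -1.85 and -2.43. Clec1a, Clec1b, Clec12b, Tmem52b and Gabarapl1 were not called, with changes between -0.17 and 0.99. At 1 day none of the tested neighbours other than Clec7a was called. The promoter windows of both genes are shown because they are adjacent and rose together at 6 months. They run from 250 bases before to 50 after the start in RefSeq (GRCr8), Clec7a at chr4:164599778-164600077 and Olr1 at chr4:164634498-164634797, both on the minus strand. Capitals mark the letters GAGGAA, a core bound by the myeloid factor PU.1, read on either strand, and the letters TGANTCA, the AP-1 element.
Clec7a: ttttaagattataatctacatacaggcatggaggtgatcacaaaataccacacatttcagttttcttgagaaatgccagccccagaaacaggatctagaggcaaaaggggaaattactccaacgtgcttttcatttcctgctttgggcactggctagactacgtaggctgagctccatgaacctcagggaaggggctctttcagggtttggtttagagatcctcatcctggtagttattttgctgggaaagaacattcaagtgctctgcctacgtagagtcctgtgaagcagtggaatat
Olr1: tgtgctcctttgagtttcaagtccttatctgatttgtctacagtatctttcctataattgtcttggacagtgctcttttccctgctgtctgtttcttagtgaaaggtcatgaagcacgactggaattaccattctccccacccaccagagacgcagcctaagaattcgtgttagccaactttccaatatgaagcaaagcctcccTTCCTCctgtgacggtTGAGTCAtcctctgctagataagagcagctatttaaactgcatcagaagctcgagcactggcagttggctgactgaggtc
The Olr1 window holds 1 match of each motif and the Clec7a window neither, where 27.6% of 33469 RefSeq promoter windows hold GAGGAA and 7.33% hold TGANTCA, on either strand. Among the other receptors in the table, GAGGAA was found in Marco once, in Mrc1 and Stab1 in 2 places each, and in Cd163 not at all. TGANTCA was found in none of these, and neither TGACNNNGC (an NRF2-type element, in 12.1% of windows) nor TTGCNNAA (a C/EBP-type element, in 10.6%) was found in any of the 6 receptors in the table. Msr1 and Scarb1 are named only.

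Mrc1, the mannose receptor, did not separate the exposures. At 1 day it was at 228, 211, 235, 232, 236 and 231 CPM in silica lungs, against 228, 240.5, 210.3 and 224 CPM in air lungs. The change was 0.02 ± 0.04 (adjusted p = 0.825), with the sign depending on the scaling: it was -0.00034 with library totals alone. At 6 months it was at 184, 339.8, 188, 280.5 and 230.3 CPM in silica lungs, against 174 and 224 CPM in air lungs. Silica replicates 32 and 34 were the high ones, the groups overlapped, and the change of 0.30 ± 0.26 was not called (adjusted p = 0.471).

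Cd163 went up at 1 day and lay lower at 6 months. At 1 day it was at 12.5, 11.5, 11.5, 12.0, 11.7 and 14.5 CPM in silica lungs, against 10.1, 8.79, 9.04 and 10.99 CPM in air lungs. The groups did not overlap, though the lowest silica lung and the highest air lung were close, and it rose by 0.33 ± 0.09 (adjusted p = 0.0365). The call was lost in 7 of 10 fits that left out 1 library, with no filter (adjusted p = 0.0524) and with all lung groups in 1 fit (adjusted p = 0.503). At 6 months it was at 8.30, 12.2, 5.18, 8.16 and 5.03 CPM in silica lungs, against 12.8 and 14.9 CPM in air lungs. No silica lung reached an air lung, but the change of -0.83 ± 0.33 was not called (adjusted p = 0.125). It was called with every library separate (adjusted p = 0.0170), with all lung groups in 1 fit (0.00966) and without silica replicate 32 (0.0459). The first of these fits counts each near-identical pair as 2 samples, so its p-value is too small if the pairs are not independent. It called 6396 of 15910 genes, and the fit of all lung groups called 6501 of 16568. Without silica replicate 32, 2170 of 16130 genes were called, against 3190 of 16265 with pairs merged and no library left out. The difference between times was -1.19 ± 0.31 (adjusted p = 0.0106), and 1 of 17 fits that left out a library lost it, without the merged air replicates 20 and 25 (adjusted p = 0.0564).

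Stab1 was at 32.9 to 37.6 CPM in silica lungs of 1 day, against 30.3 to 35.3 CPM in air lungs, with a change of 0.09 ± 0.06 (adjusted p = 0.408). At 6 months it was at 37.8, 33.3, 23.4, 29.0 and 32.7 CPM in silica lungs, against 35.4 and 43.5 CPM in air lungs, a change of -0.34 ± 0.19 (adjusted p = 0.245). The groups overlapped at both times. The difference between times was -0.45 ± 0.17 (adjusted p = 0.0622).

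Scarb1 was at 115, 145, 139, 131, 143 and 127 CPM in silica lungs of 1 day, against 129, 119.9, 133 and 134 CPM in air lungs. The ranges overlapped and the change was 0.05 ± 0.06 (adjusted p = 0.719). At 6 months it was at 117, 115, 139.8, 123 and 134 CPM in silica lungs, against 89.6 and 96.7 CPM in air lungs. Every silica lung lay above both air lungs, and it rose by 0.43 ± 0.12 (adjusted p = 0.0434), though without a filter the adjusted p was 0.0624. With each time scaled on its own, silica lungs averaged 133 ± 11.5 CPM at 1 day and 126 ± 10.8 CPM at 6 months. Air lungs averaged 129 ± 6.43 and 93.1 ± 5.03 CPM, and levels within an exposure were not tested between the times. The difference between times was 0.36 ± 0.12 (adjusted p = 0.0376), and it was lost in 9 of 17 fits that left out 1 library.

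**Figure D2:**
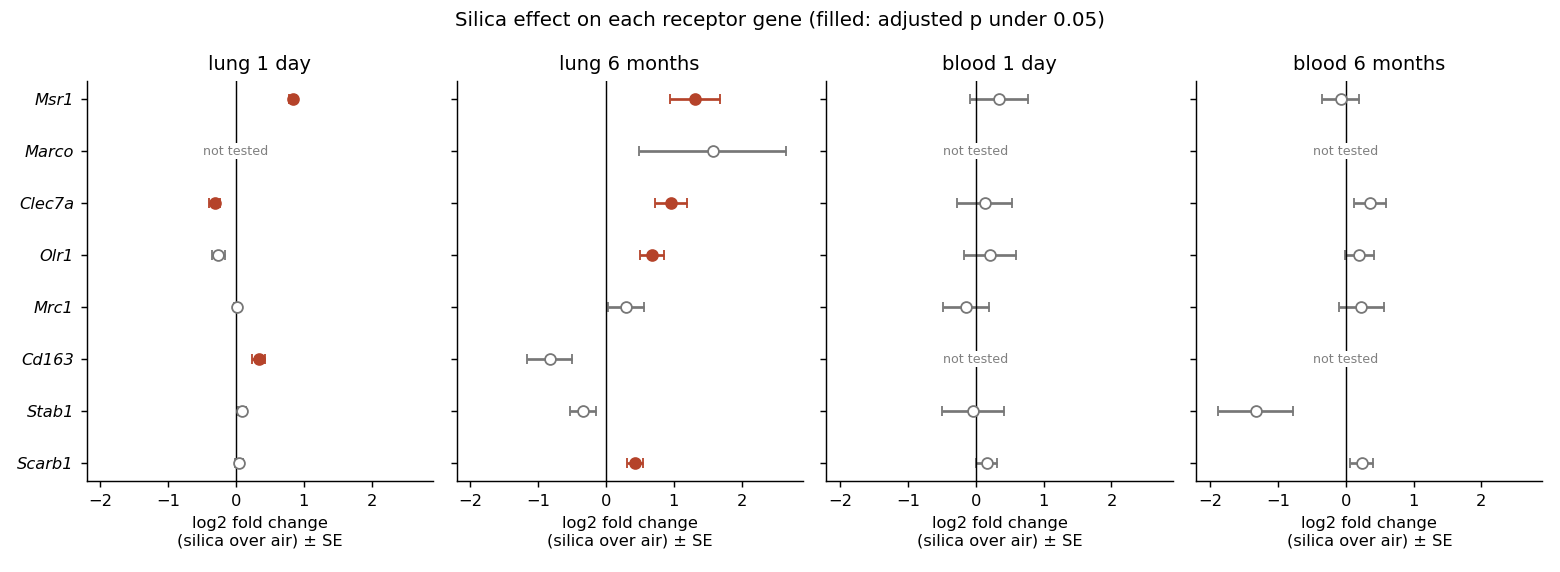
Log2 fold change of each receptor gene, silica over air, ± SE (horizontal axis) in lung and blood at 1 day and 6 months; filled points have an adjusted p under 0.05 and genes that did not pass the filter are marked. In lung 3 genes are filled at 1 day and 4 at 6 months, and in blood none.

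Counted together, 7 of the 8 receptors passed the filter in lung at 1 day, where 2 rose (Msr1, Cd163) and 1 fell (Clec7a), against 11.7% of all genes tested called in either direction, 7.61% upward and 4.07% downward. At 6 months all 8 passed, 4 rose (Msr1, Clec7a, Olr1, Scarb1) and none fell, against 19.6% of all genes called, 9.52% upward and 10.1% downward. The groups did not overlap for 2 receptors at 1 day (11.4% of all genes) and for 5 at 6 months (45% of all genes, with only 2 air libraries). The median change of the receptors tested was 0.05 at 1 day and 0.56 at 6 months, where that of all genes tested was 0.00 at both. Between the times, the silica effects of 4 receptors differed, Clec7a, Olr1 and Scarb1 upward and Cd163 downward, against 26.8% of all genes, 12.2% upward and 14.6% downward. At 6 months the 4 calls in lung rest on 2 air libraries: Clec7a, Olr1 and Scarb1 were each lost in 5 of 7 fits that left out 1 library, and none of the 4 passed without the merged air replicates 19 and 24.

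Ratios of counts within a library do not depend on its scaling, and were taken as a description with no test. Msr1 counts per 100 Mrc1 counts were 49.0 to 57.9 in silica lungs of 1 day, against 28.1 to 32.3 in air lungs. At 6 months the same ratio was 46.8 to 78.2 in silica lungs, against 27.8 and 33.3 in air lungs. The exposures were apart at both times. Cd163 counts per 100 Mrc1 counts were 4.87 to 6.27 in silica lungs of 1 day, against 3.66 to 4.91 in air lungs, and 2.18 to 4.50 in silica lungs of 6 months, against 6.66 and 7.32 in air lungs. This ratio was therefore lower in silica at 6 months in every library. Olr1 counts per 100 Clec7a counts were 16.4 to 20.96 in silica lungs of 1 day, against 16.8 to 20.4 in air lungs, and 15.8 to 27.9 in silica lungs of 6 months, against 25.3 and 25.9 in air lungs.

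**Figure D3:**
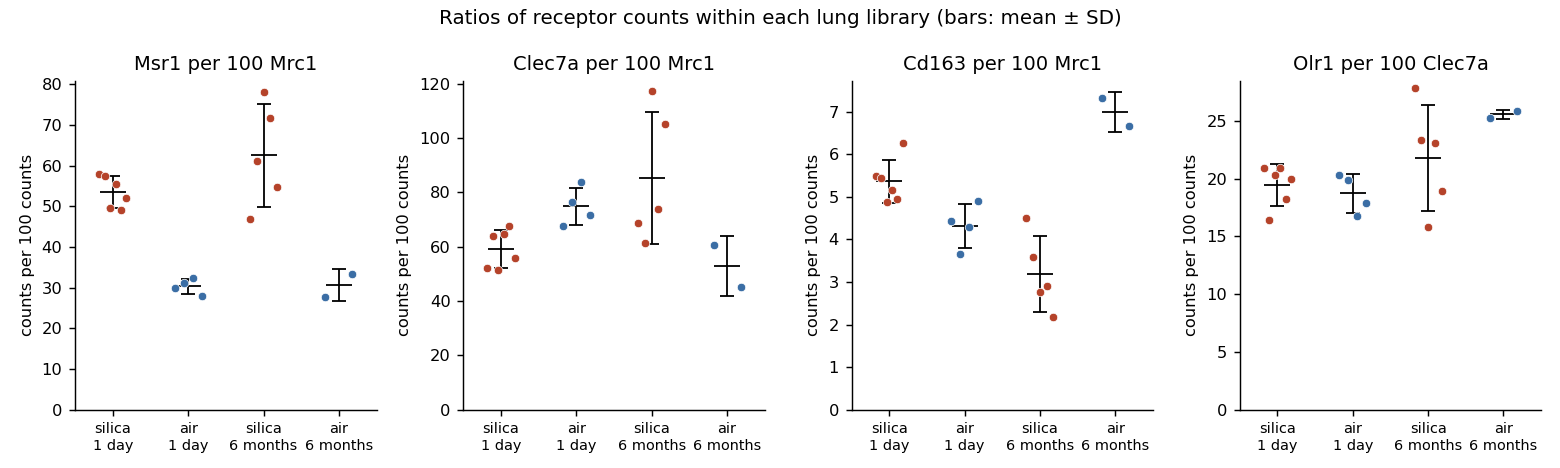
Counts of 1 receptor per 100 counts of another in each lung library (vertical axis), silica left of air at each time; bars are mean ± SD. Msr1 per 100 Mrc1 is higher in every silica lung at both times, and Cd163 per 100 Mrc1 is lower in every silica lung at 6 months.

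Genes whose lung levels ran most like a receptor's were taken over the 17 lung libraries, which share exposures and times, so r is a description. For Msr1 these were Ddhd1 (r = 0.95), Tiam1 and Tmem56 (both 0.95). For Clec7a they were Abcg1, a cholesterol exporter (0.94), Alg9 (0.93) and Naaa (0.93). For Olr1 they were Nrcam (0.90), Slc7a8 (0.88) and Atp10d (0.85). For Cd163 they were Pcm1, Csnk1g1 and Slc25a30 (all 0.89), and for Scarb1 LOC684529 (0.94), Atp9a and Mapk3 (both 0.92). Cd163 ran against Clec7a (r = -0.76) and with Stab1 (r = 0.64).

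Other uptake receptors were taken as lists, to be read against the shares of all genes called in lung, 7.61% upward and 4.07% downward at 1 day and 9.52% upward and 10.1% downward at 6 months. Of 15 other scavenger receptors tested at 1 day, 3 rose and 1 fell (median change 0.04), and their summed level was 3698 to 3994 CPM in silica lungs, against 3957 to 4030 CPM in air lungs. Of 16 at 6 months 6 rose and 1 fell (median 0.55), with sums of 3181 to 4292 CPM in silica lungs, against 2215 and 2641 CPM in air lungs. Cd68, a lysosomal glycoprotein of macrophages, was at 135 ± 4.69 CPM in silica lungs and 69.7 ± 4.58 CPM in air lungs at 1 day, a rise of 0.95 ± 0.05 (adjusted p = 4.08e-08), and rose by 1.78 ± 0.39 at 6 months. Cd36, a fatty acid and lipoprotein receptor, rose by 0.23 ± 0.06 at 1 day, and Ager, a receptor abundant on alveolar type 1 cells, changed by -0.22 ± 0.05. At 6 months Megf10 rose by 2.14 ± 0.27 and Stab2, the homologue of Stab1, changed by -3.13 ± 0.35.

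Of the other C-type lectin receptors, 5 of 14 rose and 1 fell at 1 day, and 10 of 16 rose and 1 fell at 6 months, with median changes of 0.39 and 1.38. Clec4e (Mincle) rose by 0.83 ± 0.16 at 1 day and 2.29 ± 0.34 at 6 months. Clec4d rose by 0.60 ± 0.13 at 1 day, Cd207 (langerin) rose by 2.37 ± 0.39 at 6 months, Mrc2 changed by -0.15 ± 0.04 at 1 day and Clec2d by -2.47 ± 0.55 at 6 months. Among 10 genes that carry the signal of dectin-1, the kinase Btk and the adaptor Card9 rose at both times, by 0.44 ± 0.07 and 0.64 ± 0.13 at 1 day and by 1.27 ± 0.20 and 1.51 ± 0.26 at 6 months. Syk, the kinase next to the receptor, and Plcg2 changed by -1.75 ± 0.22 and -2.28 ± 0.28 at 6 months. In that list 4 genes rose and none fell at 1 day, and 3 rose and 5 fell at 6 months. Syk and Plcg2 are also expressed by natural killer and B cells. Natural killer cell genes stood high in both air lungs of 6 months and B-cell genes were lower there, and the part of those cells was not tested.

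Fc and complement receptors, which take up coated particles, rose in 7 of 12 at 1 day with none falling, and in 6 of 12 at 6 months with 2 falling. Their sums were 824 to 1148 CPM in silica lungs and 673 to 798 CPM in air lungs at 1 day, and 1209 to 1401 CPM in silica lungs and 1891 and 2212 CPM in air lungs at 6 months, so the sum lay lower in silica lungs at 6 months while most called members rose. Fcgr2b rose by 1.20 ± 0.15 and Itgam by 0.79 ± 0.16 at 1 day. At 6 months Vsig4, a complement receptor of resident macrophages, rose by 2.91 ± 0.79 and Cr2 by 1.97 ± 0.52, while Itgax and Itgb2 changed by -2.09 ± 0.33 and -1.18 ± 0.16. Both integrins are also carried by natural killer cells, whose part was not tested. B-cell genes were higher in silica lungs at 6 months, and the part of B cells in the rises was not tested either. Receptors and bridging molecules for dying cells gave 1 rise and 4 falls among 11 genes at 1 day and 3 rises at 6 months. Cd300lf rose by 0.48 ± 0.08 at 1 day and 1.33 ± 0.24 at 6 months, and Trem2 rose by 1.36 ± 0.39 at 6 months. Itgb3 and Gas6 changed by -0.24 ± 0.07 and -0.21 ± 0.05 at 1 day.

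Markers of cells that the lung pieces could hold were counted in the same way, against the same shares of all genes. Among 12 alveolar macrophage markers, 6 rose and 2 fell at 1 day, and their summed level was 1108 to 1258 CPM in silica lungs, against 839 to 971 CPM in air lungs. At 6 months 6 rose and 1 fell, with sums of 1067 to 1861 CPM in silica lungs and 1013 to 1118 CPM in air lungs. Fabp4, the first gene of the list, averaged 11.02 CPM in silica and 11.4 CPM in air lungs at 1 day, and at 6 months it rose to 52.0 ± 31.4 CPM in silica lungs, against 6.35 ± 1.38 CPM in air lungs. Atp6v0d2, a proton pump subunit, rose by 1.72 ± 0.11 at 1 day, while Krt79 and Pparg changed by -0.59 ± 0.11 and -0.35 ± 0.09.

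Of 12 interstitial macrophage markers, 6 rose at 1 day and 5 at 6 months, with none falling. Their sums were 808 to 935 CPM in silica lungs and 765 to 965 CPM in air lungs at 1 day, and 768 to 905 CPM in silica lungs and 561 and 581 CPM in air lungs at 6 months. C1qa, a complement component made by macrophages, averaged 59.0 ± 5.50 CPM in silica and 37.5 ± 2.80 CPM in air lungs at 1 day. Neutrophil markers rose in 5 of 11 at 1 day and 9 of 11 at 6 months. Their sums were 564 to 843 CPM in silica lungs and 217 to 313 CPM in air lungs at 1 day, and 788 to 2486 CPM in silica lungs and 103 and 119 CPM in air lungs at 6 months. Monocyte markers rose in 4 of 10 and 7 of 10, and alveolar type 2 cell markers, among them the surfactant protein gene Sftpc, in 7 of 10 and 8 of 10. The monocyte and interstitial macrophage lists share several genes, so their counts are not separate. Endothelial markers fell in 7 of 11 at 1 day, with sums of 5033 to 5554 CPM in silica lungs and 5661 to 6796 CPM in air lungs, and in 1 of 11 at 6 months, which is close to the 10.1% of all genes that fell. No marker is exclusive to one cell type, and the part of cell numbers in the receptors' changes was not tested.

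In blood no receptor was called at either time. At 1 day 6 of the 8 passed the filter and 0 were called, against 0% of 11876 genes, and at 6 months again 6 passed and 0 were called, against 0% of 11615 genes. At an unadjusted p under 0.05 there were 430 genes at 1 day and 720 at 6 months, and DESeq2 called 0 and 2 genes. Clec7a at 1 day was at 8.38 CPM at the lowest, 103 at the median and 134 CPM at the highest in silica blood, against 73.1, 80.7 and 108 CPM in air blood. Silica replicate 11, at 8.38 CPM, was far below the other 5 silica samples, which were at 96.9 CPM or more. With it included the change was 0.13 ± 0.41 (adjusted p = 1.00), and without it 0.38 ± 0.11 (adjusted p = 0.356).

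The same replicate 11 was the lowest for Olr1 (1.63 CPM, where the other silica samples were at 9.36 to 18.3 CPM) and for Msr1 (0.218 CPM), and the highest for Scarb1 (33.4 CPM). Its other C-type lectin receptors summed to 193 CPM, against 577 CPM or more in every other blood sample of 1 day. Its neutrophil markers summed to 2647 CPM, the lowest of that time, and its lymphocyte markers to 915 CPM, within the range of the others. At 6 months Clec7a was at 60.5, 81.1 and 99.4 CPM (lowest, median and highest) in silica blood, against 25.5, 66.9 and 82.0 CPM in air blood, and the change of 0.36 ± 0.23 was not called (adjusted p = 0.658; 0.18 ± 0.15 without air replicate 25). Air replicate 25 was the lowest, and it had a TMM factor of 1.93 and a lymphocyte marker sum of 1512 CPM, against 425 to 768 CPM in the other blood samples of 6 months.

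Among the other receptors in blood, Olr1 averaged 12.7 ± 6.58 CPM in silica and 11.1 ± 2.49 CPM in air at 1 day, and 8.86 ± 2.20 CPM in silica and 7.77 ± 2.14 CPM in air at 6 months. Scarb1 averaged 23.2 ± 5.46 CPM in silica and 20.7 ± 2.70 CPM in air at 1 day, and 16.3 ± 2.58 CPM in silica and 13.9 ± 3.16 CPM in air at 6 months. All 4 of those ranges overlapped. Msr1 and Mrc1 were at 1.54 to 2.87 CPM on average in every blood group. Stab1 averaged 0.667 CPM in silica and 0.663 CPM in air at 1 day, and 0.555 CPM in silica and 1.34 CPM in air at 6 months, where air replicate 25 alone was at 4.47 CPM (change -1.33 ± 0.55, adjusted p = 0.658, and -0.39 ± 0.31 without it). Marco and Cd163 were not tested. At 1 day each had 8 counts in all silica samples together and 3 in all air samples. At 6 months Marco had 0 counts in silica and 1 in air, and Cd163 had 1 in silica and 3 in air. For Marco in silica blood of 6 months, a count of 0 in a library allows at most 0.178 to 0.403 CPM on the TMM-scaled level, for counting error only.

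**Figure D4:**
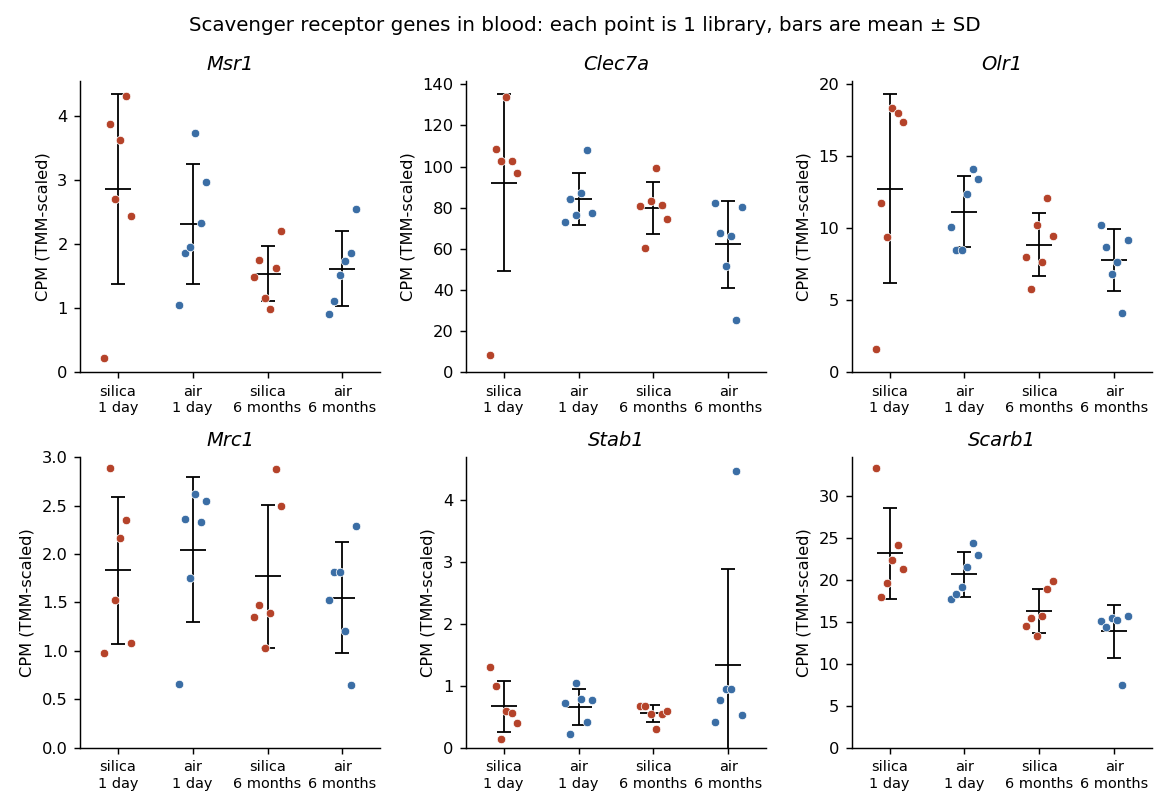
CPM of the 6 receptor genes tested in blood in each library (vertical axis, linear), with silica left of air at each time; bars are mean ± SD. The exposures overlap for every gene, silica replicate 11 lies at the foot of the 1-day silica groups for Clec7a, Olr1 and Msr1, and air replicate 25 is the highest 6-month air sample for Stab1 and the lowest for Clec7a, Olr1, Mrc1 and Scarb1.

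Whether the silica effect differed between blood and lung was tested as well. At 1 day none of the 7 receptors tested differed, against 0.192% of genes, and at 6 months none of 8, against 1.17% of genes. These include Cd163 at both times and Marco at 6 months, which did not pass the filter in blood alone. Their blood counts are too few to show whether the silica effect differed. The largest difference at 6 months with an SE under 1 was that of Msr1, -1.52 ± 0.44 (blood minus lung, adjusted p = 0.101), and for Clec7a it was -0.74 ± 0.40 (adjusted p = 0.452). These results turn on single libraries. Clec7a was called at 1 day without silica blood replicate 11 (0.72 ± 0.15, adjusted p = 0.01996) and at 6 months without air blood replicate 25 (-0.98 ± 0.29, adjusted p = 0.0441). Msr1 was called at 6 months without air blood replicate 25 (-1.55 ± 0.45, adjusted p = 0.0419), without the merged silica lungs 30 and 31 (-1.68 ± 0.40, adjusted p = 0.0306) and with every library separate (adjusted p = 0.0422). The last of these fits counts each near-identical lung pair as 2 samples. All these fits called more genes as well. At 1 day, 123 of 16158 genes were called without silica blood replicate 11, against 31 of 16148 with no library left out. At 6 months, 1254 of 16411 were called without air blood replicate 25 and 389 of 16395 without silica lungs 30 and 31. With every library separate 797 of 16167 were called, against 193 of 16444 with pairs merged and no library left out. Nor did the silica effect in blood differ between times for any of the 6 receptors tested, against 0% of genes.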

How the data were processed

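Per the labels' protocols, RNA was taken from lung and from globin-depleted whole blood. Among the tools in the submitters' processing notes are Salmon 1.10.1, STAR 2.6.1d and Trim Galore 0.6.7, with the build Rnor_6.0. Which annotation release was used is not given in these sources. The authors deposited gene-level estimated counts from Salmon, with no scaling for depth or length, in 4 tables split by tissue and time. The estimated counts were rounded to whole numbers; they were not whole in 3 of 46 samples for Msr1 and in 1 for Stab1, and were whole for the other receptors. Precision follows depth: 3 counts, the floor, are 0.123 to 0.282 CPM before TMM scaling.

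Silica was tested against air within each table with edgeR 4.0.16 (R 4.3.3; filterByExpr with a count of at least 10 and 15 in all, TMM factors, robust quasi-likelihood F test), and differences between times or tissues as interactions with 1 mean per group. TMM factors were 0.521 to 1.93 in blood. The labels do not say that samples of a group come from separate rats, so p-values measure the spread between samples. The alternatives were RLE factors, library totals alone, no filter, DESeq2 1.42.0, all groups of a tissue in 1 fit, every library separate and each library left out. The scripts were tested on simulated data.

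Sample pairs were compared gene by gene with a chi-square test, for genes averaging 20 counts or more, and pairs in which fewer than 10% of genes had p under 0.05 were counted as 1 library (mean counts). The form used, with TMM scaling, Yates' correction and only genes with whole counts in both (tolerance 1e-06), was chosen after seeing the data. It gave 6.99% to 9.10% in 5 lung pairs and 20.4% or more in the other 46 lung pairs. The plain test, by library totals over all genes with no correction, which is the form written down at the start, gave 9.54% to 11.5% in those 5 pairs and put 1 of them under 10%. It stands as an alternative added after seeing the data.

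The receptors and gene lists were chosen with earlier results of these data known. The genes to be named were all 8 receptors and the 2 largest called rises and falls of each list in each lung comparison. To these were added the 3 genes most alike to each receptor called in lung (over genes with at least 5 CPM, log2 with a prior count of 2) and the first gene of a marker list. For several marker lists not all of these are named. The neighbours of Clec7a and Olr1, and Btk, Card9, Eomes and Nkg7 beside the results they touch, are named as well. So are further lymphocyte markers at 6 months. RefSeq promoter windows (GRCr8) matched 6 of 8 receptors.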

Additional observations from a re-analysis of the deposited data

Results flagged for a closer look

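Among 46 receptor-and-group combinations with 4 to 6 libraries, 6 had a library far from the others. The combinations share libraries, so a number to be had by chance cannot be given. In lung at 1 day, silica replicate 11 was the lowest for Mrc1 (211.1 CPM, next 228) and silica replicate 15 the highest for Cd163 (14.5 CPM, next 12.5). In blood at 1 day, silica replicate 11 was the lowest for Clec7a (8.38 CPM, next 96.9). In blood at 6 months, silica replicate 33 was the lowest for Stab1 (0.298 CPM, next 0.540), and air replicate 25 was the highest for Stab1 (4.47 CPM, next 0.947) and the lowest for Scarb1 (7.52 CPM, next 14.4).

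The silica effect in lung differed between 6 months and 1 day, by the test of the difference itself, for 4 receptors, against 26.8% of all genes. All 4 rest on the 2 air libraries of 6 months. The calls for Scarb1 and Cd163 were not kept in every fit that left out 1 library. The log2 difference (6 months minus 1 day) was 1.24 for Clec7a, 0.92 for Olr1, 0.36 for Scarb1 and -1.19 for Cd163.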

How the results depend on the processing

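Of 1176 single-receptor values recomputed under an alternative, 1071 kept direction and side of the threshold, 50 lost the call, 16 gained one and 39 changed sign. The 1071 include receptors that were not called in the results above and stayed uncalled. They also include blood fits that repeat those results, since no blood pair was merged. These totals therefore do not give the share of calls that held. With all lung groups in 1 fit, 594 genes and 1 receptor (Msr1) were called in lung at 1 day and 6501 genes at 6 months. With every library separate, each near-identical pair counts as 2 samples. That fit called 6396 genes in lung at 6 months. For blood minus lung it called 50 at 1 day and 797 at 6 months, with 1 receptor (Msr1, adjusted p = 0.0422). The plain pair test, added after seeing the data, merged no pair at 6 months. There it is the same fit as every library separate, so its 6396 and 797 genes and 1 receptor for blood minus lung add nothing. DESeq2 called 2 genes in blood at 6 months. Library totals alone put 52.8% of the lung calls at 1 day higher in silica, against 65.1% with TMM, and moved the median of all genes in blood at 6 months to -0.30. The cause was not tested.

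Mrc1 in lung at 1 day was -0.00034 with library totals alone and -0.0075 with every library separate. Sample numbers shared between tissues did not deviate together (r of -0.06 to 0.23 in 17 pairs, 2 above 0.1, and 2 samples alike best with their own number). The replicate block left 4 calls for blood minus lung at each time, with Stab1 at 0.10 at 1 day and Mrc1 at 0.10 at 6 months. In that fit Clec7a was at 0.015 at 1 day and -0.26 at 6 months.

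Leaving out 1 library gave 1185 to 2240 calls (1 to 3 receptors) in lung at 1 day, 57 to 4169 (0 to 4) at 6 months, 0 to 2 in blood at 6 months, 1641 to 5569 (2 to 5) for the difference between lung times, and 15 to 123 (0 to 1) and 3 to 1254 (0 to 2) for blood minus lung at 1 day and 6 months. The lowest counts at 6 months and between times came without the merged air replicates 19 and 24. Values that changed sign ranged from -0.022 to 0.047 for Mrc1 in lung at 1 day, -0.22 to 0.094 for Msr1 in blood at 6 months, -0.29 to 0.18 for Stab1 in blood at 1 day, -1.43 to 1.78 for Marco between lung times, -0.21 to 0.13 for Olr1 and -0.058 to 0.21 for Scarb1 between blood times. For blood minus lung they ranged from -3.49 to 4.19 for Cd163 and -0.34 to 0.093 for Stab1 at 1 day, and from -2.40 to 0.59 for Cd163 and -0.43 to 0.043 for Mrc1 at 6 months. Depth limits Marco in all groups and Cd163 in blood.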
